A study of Mus musculus with 9 samples.

Results

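Goblet cells are the mucus-secreting cells of the colonic epithelium, and 10 of their genes are described here: Muc2, Tff3, Clca1, Fcgbp, Zg16, Agr2, Atoh1, Spdef, Spink4 and Retnlb. They were chosen by name as mucus components and secretory lineage factors, with earlier results of these data known. They are 10 of the 55401 genes in the table, and all 10 were among the 14506 genes tested. RNA of colonic tissue from wild-type mice was sequenced in 9 libraries that form 3 groups of 3. The first group is labelled berberine, a plant alkaloid; the second is labelled high-fat diet with AOM/DSS, and the third chow diet with AOM/DSS. The labels do not spell out AOM/DSS; the letters are commonly used for azoxymethane with dextran sulfate sodium, which together cause tumours in an inflamed colon. The diet of the berberine group and whether it received AOM/DSS are not in the labels, nor are the age of the mice and whether the 9 libraries came from 9 animals. The p-values below therefore measure the spread between these libraries, which may be partly technical.

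The inner mucus layer of the colon is a sheet of disulfide-linked Muc2, the gel-forming mucin, which keeps bacteria away from the epithelium. Goblet cells fold Muc2 with the help of Agr2, pack it into granules and release it with Fcgbp, Clca1, Zg16 and Tff3, which are bound to or held in the mucus. Commitment of crypt progenitors to the secretory lineage needs the transcription factor Atoh1, which Notch signalling represses, and maturation of goblet cells needs Spdef.

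The coordinates of the 10 genes are on GRCm38 as the deposited table gives them. Muc2 (ENSMUSG00000025515) lies at chr7:141690340-141754690 on the plus strand, Fcgbp (ENSMUSG00000047730) at chr7:28071236-28120862 on the plus strand and Zg16 (ENSMUSG00000049350) at chr7:127050156-127087286 on the minus strand. Tff3 (ENSMUSG00000024029) lies at chr17:31125306-31129646 and Spdef (ENSMUSG00000024215) at chr17:27714352-27728953, both on the minus strand. Clca1 (ENSMUSG00000028255) lies at chr3:145003817-145032776 on the minus strand, and Agr2 (ENSMUSG00000020581) at chr12:35992907-36004087 on the plus strand. Atoh1 (ENSMUSG00000073043) lies at chr6:64729125-64731245, Spink4 (ENSMUSG00000028415) at chr4:40920052-40931395 and Retnlb (ENSMUSG00000022650) at chr16:48816856-48818892, all on the plus strand. Several members sit beside relatives. Muc2 is 34.3 kb from Muc5ac and 35 kb from Muc6, Tff3 is 11.4 kb from Tff2, Clca1 is 28.8 kb from Clca4a, Agr2 is 43.2 kb from Agr3, and Retnlb is 23.7 kb from Retnla. None of the 10 overlaps another gene on its own strand, and the 2 gene models that overlap Zg16 on the other strand are predicted ones.

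Promoter windows from RefSeq, on GRCm38.p6, were at hand for 5 of the 10 genes (Muc2, Fcgbp, Agr2, Atoh1 and Spdef), each reaching from 250 bases before to 50 bases after the RefSeq start. They were searched on both strands for CANNTG, the E-box letters that basic helix-loop-helix factors such as Atoh1 can bind. The 250 bases before the start are shown for the 3 genes with a match, 5′ to 3′, all on the plus strand, in lower case with each CANNTG in capitals. The windows are chr7:141690090-141690339 for Muc2, chr7:28070986-28071235 for Fcgbp and chr12:35992675-35992924 for Agr2.
Muc2: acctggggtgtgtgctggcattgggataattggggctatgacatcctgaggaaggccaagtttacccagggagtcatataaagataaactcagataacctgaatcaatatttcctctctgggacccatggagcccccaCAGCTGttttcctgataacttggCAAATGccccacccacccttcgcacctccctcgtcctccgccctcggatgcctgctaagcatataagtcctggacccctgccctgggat
Fcgbp: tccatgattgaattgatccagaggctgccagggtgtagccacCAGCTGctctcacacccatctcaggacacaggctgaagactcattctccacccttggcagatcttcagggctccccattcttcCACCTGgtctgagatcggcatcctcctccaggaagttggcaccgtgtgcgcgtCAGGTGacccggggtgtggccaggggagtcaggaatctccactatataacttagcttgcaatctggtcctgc
Agr2: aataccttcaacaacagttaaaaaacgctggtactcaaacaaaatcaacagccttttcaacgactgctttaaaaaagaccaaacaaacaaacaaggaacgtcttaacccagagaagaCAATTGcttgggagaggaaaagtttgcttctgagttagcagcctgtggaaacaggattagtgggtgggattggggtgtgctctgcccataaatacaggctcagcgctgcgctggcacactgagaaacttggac
Counted from the RefSeq start, which for Agr2 lies 18 bases inside the gene as given above, the matches begin at -112 and -89 in Muc2, at -208, -125 and -72 in Fcgbp, and at -133 in Agr2. Fcgbp has 1 more match at 14 bases past the start, and the windows of Atoh1 and Spdef hold none. The letters are common, since 72.3% of 32851 windows of the same length hold a match. The matches at -112 in Muc2 and at -208 in Fcgbp share the centre GC, a form held by 16.3% of the windows. TATAAA was found once, in Muc2 at -174, and in 13.6% of all windows. The spaced palindrome of STAT factors was searched in 1 spacing only, which was found in none of the 5 windows and in 7.0% of all windows. Other spacings were not searched, so whether the 5 windows lack STAT sites in general was not tested.

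Library totals ran between 51961764 and 69007117 estimated counts. The mean log2 FPKM of 15 genes of the epithelium at large, among them Epcam and Cdh1, was 7.40 to 7.61 in berberine, 7.35 to 7.63 in high-fat diet and 7.47 to 7.53 in chow libraries. Single genes of that list differed: Krt18, a keratin, was at 155.8 to 203 FPKM in berberine, 465 to 548 FPKM in high-fat diet and 246 to 278 FPKM in chow libraries. In high-fat diet against chow Krt18 was the 1 gene of the list called higher. Lgals4 and Tspan8 were called lower, at -1.01 and -0.71 log2 (edgeR adjusted p = 0.0118 and 0.0262). The call of Tspan8 was lost in 6 of 19 alternatives. Genes of position along the colon, 7 in all and picked out after their values had been seen, differed between libraries and between groups. Chow replicate 2 had 34.8 FPKM of the posterior gene Hoxb13 and 26.7 FPKM of the more anterior Hoxb6, against 109 to 157 and 1.48 to 4.29 FPKM in the other 8 libraries. The posterior gene Hoxd13 was at 1.51 FPKM in chow replicate 2 and 9.71 FPKM in berberine replicate 3, and at 52.1 FPKM or more elsewhere. Cyp2c55, an enzyme of the proximal colon, was at 16.8, 26.9 and 28.2 FPKM in berberine, 2.72, 1.18 and 1.51 FPKM in high-fat diet, and 363, 1390 and 150.4 FPKM in chow libraries. Cyp2c55 and Hoxa13 were the 2 of the 7 called lower in high-fat diet against chow and the 2 called higher in berberine against high-fat diet. The part of sampling position in the goblet results was not tested.

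Most of the goblet genes were lower with high-fat diet than with chow and higher with berberine than with high-fat diet, and none was called between berberine and chow. Summed over the 10 genes, FPKM (fragments scaled by transcript length and library size, so that genes of different length can be set side by side) was 6647, 8255 and 10860 in berberine, 2685, 1804 and 628 in high-fat diet, and 7151, 8389 and 5843 in chow libraries. That was 1.75% to 2.74% of all FPKM in berberine, 0.148% to 0.700% in high-fat diet and 1.44% to 2.12% in chow libraries. No high-fat diet library reached the lowest library of either other group, and the berberine and chow libraries overlapped. In tissue RNA, fewer goblet cells and less of these RNAs per goblet cell cannot be told apart.

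**Figure D1:**
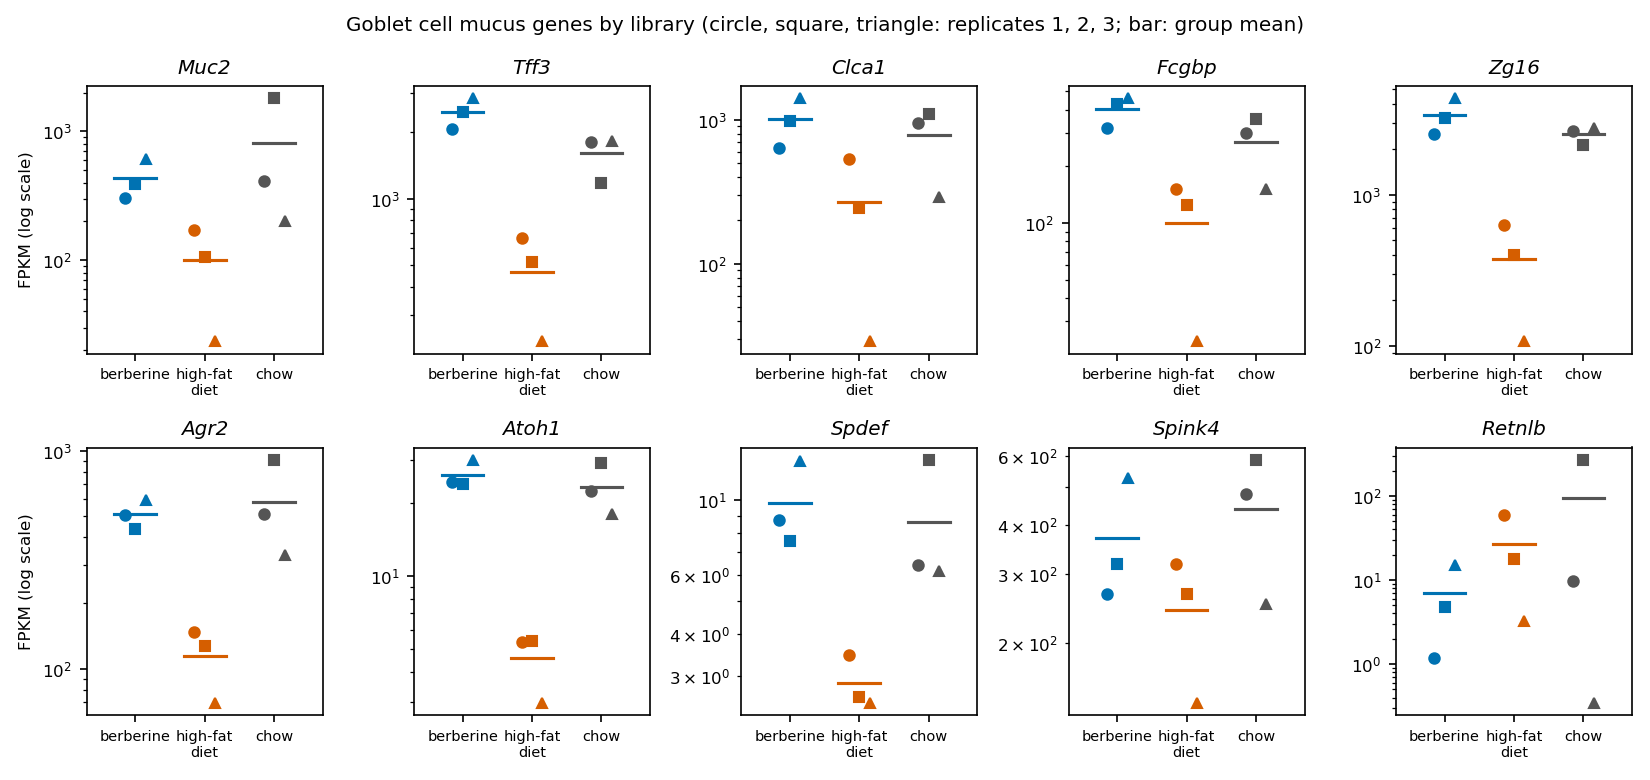
FPKM on a log scale for each of the 10 goblet cell genes in berberine, high-fat diet and chow libraries (3 per group; circle, square and triangle are replicates 1, 2 and 3; the bar is the group mean). Atoh1 lies between 2.99 and 5.37 with high-fat diet and at 18.0 or more in the other 6 libraries. High-fat diet overlaps both other groups for Spink4 and Retnlb, and overlaps chow for Clca1.

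Muc2, the mucin itself, had a wider spread in chow than any other member but Retnlb, with a coefficient of variation of 108.1%. Its FPKM was 304, 388 and 608 in berberine, 173, 105 and 23.4 in high-fat diet, and 413, 1811 and 202 in chow libraries. All 3 high-fat diet libraries were below all others, but chow replicate 2 was far above the other chow libraries. The log2 fold change of high-fat diet against chow was -3.19 ± 0.96 (SE; edgeR adjusted p = 0.0337), or 9.15-fold lower. Without chow replicate 2 it was -1.70 ± 0.72 (edgeR adjusted p = 0.121). Without high-fat diet replicate 1 it was -3.84 ± 1.15. The call was also lost without berberine replicate 2 (adjusted p = 0.0521), high-fat diet replicate 2 (0.0912) or high-fat diet replicate 3 (0.0714) in edgeR. In berberine against high-fat diet Muc2 differed by 2.23 ± 0.92 and missed the threshold (edgeR adjusted p = 0.099). Chow replicate 2 is in neither group and enters that comparison through the shared scaling and estimate of spread. Without it, Muc2 differed by 2.22 ± 0.68 and passed the threshold (edgeR adjusted p = 0.0408). Without high-fat diet replicate 1 the value was 2.89 ± 1.09 (edgeR adjusted p = 0.0929).

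Zg16, a lectin-like protein that binds Gram-positive bacteria in the mucus, was the most abundant of the 10 in the 6 berberine and chow libraries. Its FPKM was 2514, 3198 and 4357 in berberine, 626, 396 and 107 in high-fat diet, and 2656, 2127 and 2766 in chow libraries. It ranked 12 to 15 among all genes in berberine, 65 to 449 in high-fat diet and 12 to 18 in chow libraries. Zg16 fell in high-fat diet against chow by 2.87 ± 0.56 on the log2 scale (edgeR adjusted p = 0.00585) and rose in berberine against high-fat diet by 3.28 ± 0.57 (edgeR adjusted p = 0.00361), or 9.68-fold. Without high-fat diet replicate 1 the values were -3.46 ± 0.58 and 3.87 ± 0.59.

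Tff3, the trefoil peptide of goblet cells that aids epithelial repair, was the most abundant of the 10 in the 3 high-fat diet libraries. Its FPKM was 2065, 2467 and 2841 in berberine, 664, 515 and 227 in high-fat diet, and 1806, 1177 and 1828 in chow libraries. The groups did not overlap, and the berberine libraries were all above the chow libraries too. Tff3 fell in high-fat diet against chow by 1.9 ± 0.36 on the log2 scale (edgeR adjusted p = 0.00515) and rose in berberine against high-fat diet by 2.50 ± 0.37 (edgeR adjusted p = 0.00172).

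Fcgbp and Clca1 are 2 large secreted proteins of the mucus. Fcgbp, which is thought to stabilise the Muc2 network, was at 318, 429 and 461 FPKM in berberine, 151, 125 and 23.4 FPKM in high-fat diet, and 299, 359 and 151 FPKM in chow libraries. It rose in berberine against high-fat diet by 2.13 ± 0.62 on the log2 scale (edgeR adjusted p = 0.0314), but the difference between high-fat diet and chow, -1.59 ± 0.61, did not pass (edgeR adjusted p = 0.079). The highest high-fat diet library and the lowest chow library were almost equal (150.8 against 151.0 FPKM), and the call for berberine was lost without berberine replicate 1 (edgeR adjusted p = 0.0502), 2 (0.0754) or 3 (0.0814) or high-fat diet replicate 2 (0.0626). Clca1, a metalloprotease that processes the mucus, was at 640, 980 and 1416 FPKM in berberine, 537, 244 and 28.8 FPKM in high-fat diet, and 947, 1106 and 291 FPKM in chow libraries. High-fat diet and chow overlapped for Clca1, and neither the difference from chow (-1.69 ± 0.89, edgeR adjusted p = 0.183) nor that of berberine from high-fat diet (2.03 ± 0.90, edgeR adjusted p = 0.121) passed. Both values moved with the high-fat diet libraries: without replicate 1 they were -2.68 and 3.04 (edgeR adjusted p = 0.0802 and 0.0597), and without replicate 3 they were -1.14 and 1.49 (edgeR adjusted p = 0.235 and 0.138).

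Agr2, the disulfide isomerase of the endoplasmic reticulum that Muc2 needs for folding, was at 505, 438 and 591 FPKM in berberine, 148, 127 and 69.7 FPKM in high-fat diet, and 511, 909 and 331 FPKM in chow libraries. The lowest library of either other group was over the highest high-fat diet library. Agr2 fell in high-fat diet against chow by 2.50 ± 0.42 on the log2 scale (edgeR adjusted p = 0.00317) and rose in berberine against high-fat diet by 2.26 ± 0.42 (edgeR adjusted p = 0.0047).

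Both lineage factors passed in both comparisons. Atoh1, the first of them to act, was at 24.4, 24.0 and 30.2 FPKM in berberine, 5.34, 5.37 and 2.99 FPKM in high-fat diet, and 22.4, 29.2 and 18.0 FPKM in chow libraries. It had the smallest p of the 10 in both comparisons. It fell in high-fat diet against chow by 2.49 ± 0.28 on the log2 scale (edgeR adjusted p = 0.00055), and rose in berberine against high-fat diet by 2.63 ± 0.28 (edgeR adjusted p = 0.000455), or 6.18-fold. Spdef was at 8.73, 7.56 and 13.1 FPKM in berberine, 3.47, 2.60 and 2.49 FPKM in high-fat diet, and 6.43, 13.2 and 6.16 FPKM in chow libraries. It fell in high-fat diet against chow by 1.73 ± 0.38 (edgeR adjusted p = 0.00928) and rose in berberine against high-fat diet by 1.88 ± 0.38 (edgeR adjusted p = 0.00676). For both factors the high-fat diet libraries lay below all others.

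Like Clca1, Spink4 and Retnlb passed in neither comparison. Spink4, a Kazal-type protease inhibitor of goblet cells, was at 267, 319 and 526 FPKM in berberine, 319, 266 and 140 FPKM in high-fat diet, and 479, 586 and 250 FPKM in chow libraries. All 3 groups overlapped. Its difference in high-fat diet against chow was -1.0 ± 0.42 (edgeR adjusted p = 0.0992) and that of berberine against high-fat diet 0.73 ± 0.42 (edgeR adjusted p = 0.214). Without chow replicate 3 the first was -1.28 ± 0.40 and past the threshold (edgeR adjusted p = 0.0457), and DESeq2 called it with all libraries (adjusted p = 0.0437). Retnlb, the goblet cell resistin-like molecule β that kills Gram-negative bacteria and is induced by type 2 cytokines and bacterial colonisation, was at 1.18, 4.76 and 15.3 FPKM in berberine, 59.0, 17.9 and 3.28 FPKM in high-fat diet, and 9.65, 269.7 and 0.347 FPKM in chow libraries. The groups overlapped, and the coefficient of variation was 103.5%, 108.1% and 164% in berberine, high-fat diet and chow libraries. Its difference in high-fat diet against chow was -2.01 ± 1.83 (edgeR adjusted p = 0.439), and without chow replicate 2 it had the other sign, 2.35 ± 1.65 (edgeR adjusted p = 0.339). Retnlb in berberine against high-fat diet differed by -1.78 ± 1.83 (edgeR adjusted p = 0.492), by -0.42 ± 1.98 without high-fat diet replicate 1 and by -3.08 ± 2.31 without berberine replicate 3.

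**Figure D2:**
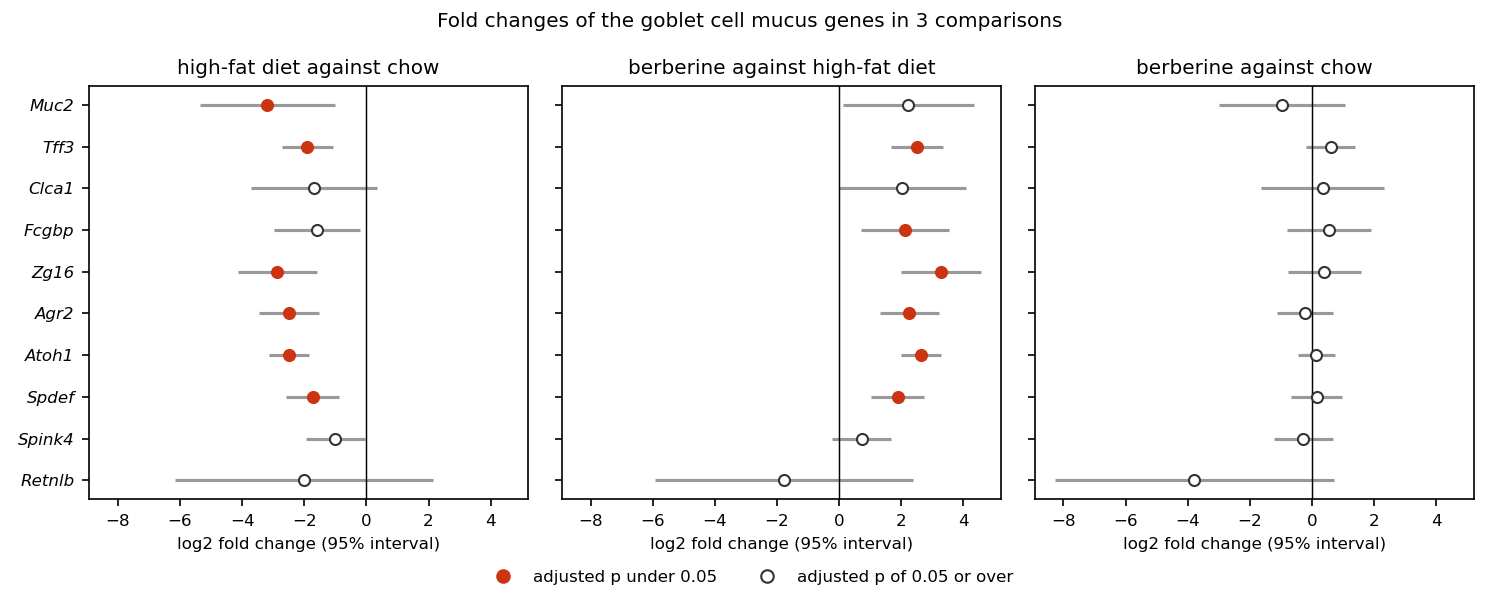
Log2 fold changes of the 10 genes with 95% intervals in high-fat diet against chow, berberine against high-fat diet and berberine against chow (edgeR, 9 libraries). Filled points have an adjusted p under 0.05: 6 genes to the left in the first panel, 6 to the right in the second and none in the third.

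Counted over the 10 genes, 6 fell in high-fat diet against chow and none rose, where 16.6% of all tested genes fell and 15.2% rose. The 6 were Muc2, Tff3, Zg16, Agr2, Atoh1 and Spdef. In berberine against high-fat diet 6 rose and none fell, where 15.8% of all genes rose and 14.9% fell; Fcgbp was called here and Muc2 was not. In 7 of the 10 every high-fat diet FPKM was below every chow FPKM, as in 18.0% of all tested genes, and in 8 every berberine FPKM was above every high-fat diet FPKM, as in 20.7% of all tested genes. The median log2 fold change of the 10 was -1.95 in high-fat diet against chow, beside 0.002 over all genes, and 2.18 in berberine against high-fat diet, beside -0.007. The same 3 high-fat diet libraries enter both comparisons, so the second is not independent of the first. The 10 genes were chosen with earlier results of these data known, so the shares beside them are a description and no test.

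Between berberine and chow none of the 10 genes was called by edgeR, and none had an unadjusted p under 0.05. Over all genes edgeR called 7, which is 0.0483%, DESeq2 called 380, and 1579 had an unadjusted p under 0.05 in edgeR. The intervals are each for a single gene and rest on the spread between these libraries. Atoh1 was at 0.14 log2 with a 95% interval of -0.46 to 0.74, Spdef at 0.15 (-0.68 to 0.98), Agr2 at -0.23 (-1.14 to 0.67) and Tff3 at 0.60 (-0.19 to 1.39). For Zg16 the value was 0.40 (-0.78 to 1.59), for Fcgbp 0.55 (-0.82 to 1.91) and for Spink4 -0.27 (-1.21 to 0.67). Muc2 was at -0.96 ± 0.89, and at 0.52 ± 0.74 without chow replicate 2. Muc2 (-2.98 to 1.06), Clca1 (-1.63 to 2.32) and Retnlb (-8.29 to 0.71) had the widest intervals. Retnlb was at -3.79 ± 1.98 log2 and at 0.56 ± 1.53 without chow replicate 2.

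Within the high-fat diet group all 10 genes had their lowest value in replicate 3. The gap to the highest high-fat diet library was unequal between genes: Clca1 was at 28.8 FPKM in replicate 3 and 537 FPKM in replicate 1, and Muc2 at 23.4 and 173 FPKM, whereas Spdef was at 2.49 and 3.47 FPKM. The 8 smooth muscle genes, a gauge of how much muscle wall a sample holds, summed to 2516 FPKM in replicate 3 and 561 and 865 FPKM in the other high-fat diet libraries, while the epithelial mean was 7.42 log2 FPKM beside 7.35 and 7.63. The part of the muscle in this gap was not tested. Without replicate 3, Tff3, Zg16, Agr2, Atoh1 and Spdef stayed past the threshold in both comparisons.

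The make-up of the summed RNA is given as a description, without a test. Zg16 held 37.8% to 40.1% of the summed FPKM of the 10 genes in berberine, 17.0% to 23.3% in high-fat diet and 25.4% to 47.3% in chow libraries. Spink4 held 3.86% to 4.84% in berberine, 11.9% to 22.4% in high-fat diet and 4.28% to 6.99% in chow libraries, so its share was highest where the sum was lowest. Per Atoh1 FPKM there were 10.9 to 17.4 FPKM of Spink4 in berberine, 47.0 to 59.7 in high-fat diet and 13.9 to 21.4 in chow libraries, with no overlap between high-fat diet and the others. Muc2 held 21.6% of the sum in chow replicate 2 and 3.46% to 6.43% in the other 8 libraries, and its ratio to Tff3 was 1.54 there and 0.103 to 0.260 elsewhere.

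**Figure D3:**
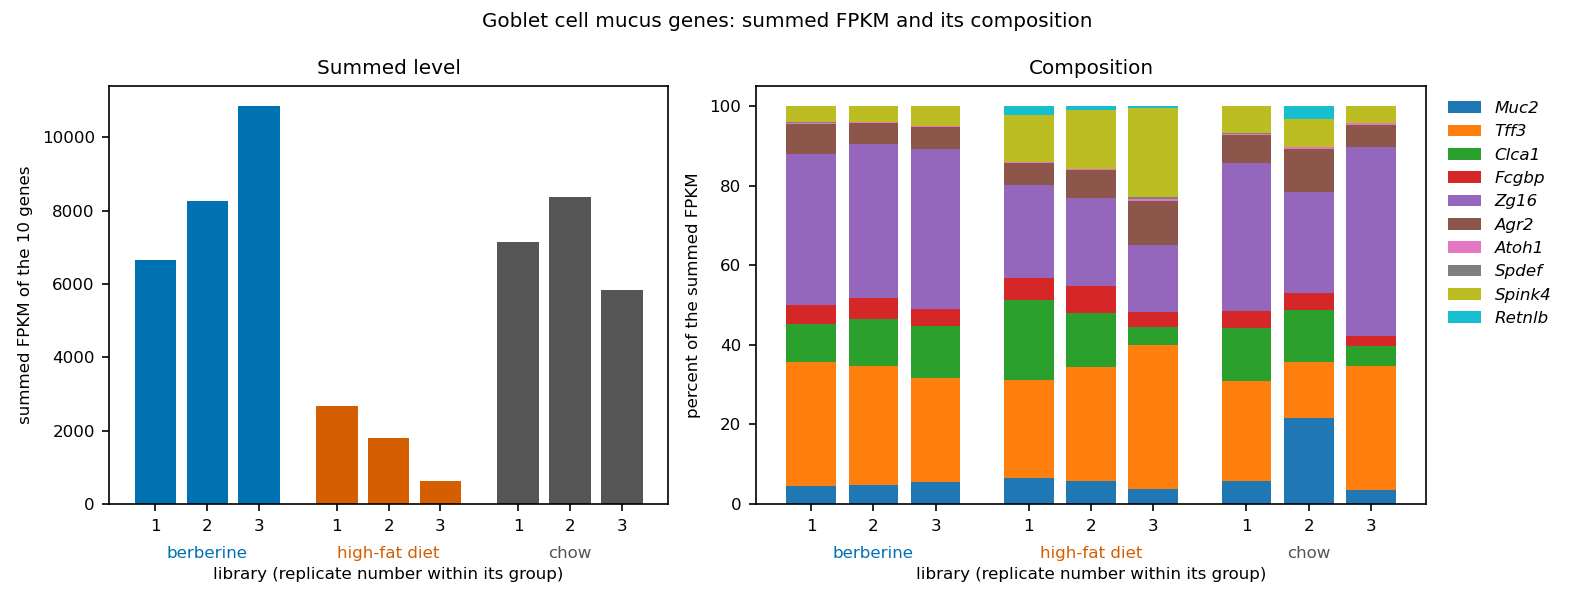
Left, summed FPKM of the 10 genes in each library; right, the percent of that sum held by each gene. The high-fat diet bars are the shortest (628 to 2685), the Spink4 share is widest there (11.9% to 22.4%), and chow replicate 2 has the widest Muc2 share (21.6%).

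The genes whose levels were nearest to each member over the 9 libraries were found from the root mean square difference of centred log2(CPM + 1), in which smaller means more alike. Only tested genes were searched, leaving out predicted gene models, clone-named genes and segments of immunoglobulins and T cell receptors. Among the members Agr2 and Atoh1 were nearest to each other (0.24), and Retnlb was 1.88 to 2.81 from the other 9. Nearest to Atoh1 outside the set were Bnip5 (0.19), Lhfpl2 (0.20) and Btnl4 (0.22), and nearest to Agr2 was the transporter Abcg2 (0.16). Nearest to Tff3 was Hsd11b2 (0.19), to Spdef Fam174b (0.22), to Zg16 Bcas1 (0.38), to Fcgbp Fer1l6 (0.34), to Clca1 Scin (0.49) and to Spink4 Tmem263 (0.26). For Muc2 the 10 nearest were Gcnt3, Slc12a8, Ugt1a7c, Slc13a2, Tpsg1, Chp2, Abcg2, Rgs17, Scin and Btnl5-ps, at 0.57 to 0.67. All of these but Scin were highest in chow replicate 2, as Muc2 was. Nearest to Retnlb were the mucosal pentraxins Mptx2 (0.87) and Mptx1 (1.07) and Sptssb (0.93), which like Retnlb were highest in chow replicate 2 (217, 340 and 62.5 FPKM).

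The wider machinery of goblet cells was followed in lists drawn up by gene function, with earlier results of these data known. For every list, 16.6% of all tested genes fell and 15.2% rose in high-fat diet against chow. In berberine against high-fat diet 15.8% rose and 14.9% fell. List counts near these shares are not results about the list. Of 24 other goblet cell genes, for folding, granule release and the cell surface, 17 fell in high-fat diet against chow and none rose (median -1.96), and 16 rose in berberine against high-fat diet and none fell (median 2.05). Nlrp6, an inflammasome sensor that promotes granule release, was at 41.8, 52.9 and 42.0 FPKM in berberine, 3.62, 5.15 and 3.35 FPKM in high-fat diet, and 29.1, 32.7 and 25.2 FPKM in chow libraries. It fell in high-fat diet against chow by 2.97 ± 0.20 (edgeR adjusted p = 9.01e-05) and rose in berberine against high-fat diet by 3.6 ± 0.21 (edgeR adjusted p = 4.72e-05). Ccl28, a mucosal chemokine, Sytl2, a granule tethering protein, and Hepacam2 fell against chow by 2.80 ± 0.30, 1.28 ± 0.16 and 2.80 ± 0.36 (edgeR adjusted p = 0.000464, 0.000838 and 0.000927). Ang4, an angiogenin that kills bacteria, is named for its values. It was at 0.276, 0.209 and 3.25 FPKM in berberine, 75.3, 82.8 and 19.5 FPKM in high-fat diet, and 3.62, 115.9 and 0 FPKM in chow libraries, and so was highest, like Retnlb, in chow replicate 2.

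Of 27 enzymes that build the O-linked sugars of mucins 24 were tested, of which 11 fell and 2 rose in high-fat diet against chow (median -0.87), and 9 rose and 1 fell in berberine against high-fat diet (median 0.77). Without chow replicate 2, 8 fell against chow (median -0.73). B3gnt6 was at 9.89 FPKM in that library and 0.414 FPKM or less in the other 8. B3gnt6 and A4gnt reached the filter in 1 group only, and without them 9 fell. Galnt6, which starts the sugar chains, fell against chow by 1.68 ± 0.18 (edgeR adjusted p = 0.000464), and the core branching enzymes Gcnt1 and Gcnt3 fell by 0.89 ± 0.14 and 3.14 ± 0.59 (edgeR adjusted p = 0.00227 and 0.00529). Without chow replicate 2, Gcnt3 fell by 2.26 ± 0.42 (edgeR adjusted p = 0.0077). Chst4, which adds sulfate, fell by 2.08 ± 0.41 (edgeR adjusted p = 0.00658). Galnt1 and Galnt2, which also start chains, were the 2 that rose against chow, by 0.48 ± 0.16 and 0.58 ± 0.14 (edgeR adjusted p = 0.0496 and 0.0143); the call of Galnt1 was lost in 11 of 19 alternatives (adjusted p up to 0.146), among them without chow replicate 2 (0.56 ± 0.18, edgeR adjusted p = 0.0581).

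Of 14 other mucin genes 6 were tested, since Muc5ac, Muc5b, Muc15, Muc16, Muc19 and Muc20 were below the filter and Muc12 and Muc17 were not analysed here; 2 fell and 1 rose in high-fat diet against chow. The surface mucins Muc3 and Muc3a fell in high-fat diet against chow by 2.81 ± 0.31 and 3.07 ± 0.58 (edgeR adjusted p = 0.000503 and 0.00529) and rose in berberine against high-fat diet by 2.92 ± 0.31 and 1.86 ± 0.56 (edgeR adjusted p = 0.000449 and 0.0343). Without chow replicate 2, Muc3a fell by 2.39 ± 0.49 (edgeR adjusted p = 0.0116), and its rise in berberine was lost in 6 of 19 alternatives (adjusted p up to 0.122, at 1.13 ± 0.46 without berberine replicate 3). Muc6, a gel-forming mucin known from gastric glands and the neighbour of Muc2, went the other way, at 0.0484, 0.0665 and 0.0160 FPKM in berberine, 6.58, 1.63 and 1.39 FPKM in high-fat diet, and 0.0557, 0.102 and 0.0149 FPKM in chow libraries. Muc6 reached the filter in the high-fat diet group only, so its call, the 1 rise in the list, is not given as a size. Among 16 near relatives of the members 8 were tested: Clca4b, beside Clca1, rose by 4.84 ± 1.07 in high-fat diet against chow (edgeR adjusted p = 0.0103), by 6.40 ± 1.06 without chow replicate 1 and by 4.23 ± 1.08 without high-fat diet replicate 2. Retnla, beside Retnlb, reached the filter in the chow group only. It was at 0.908, 0.570 and 0 FPKM in berberine, 0.143, 0 and 0.0920 FPKM in high-fat diet, and 4.31, 4.29 and 5.52 FPKM in chow libraries.

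Of 10 tested secretory lineage factors 3 fell and 3 rose in high-fat diet against chow. Klf4, needed for goblet cell differentiation, was at 194.5, 236 and 189.8 FPKM in berberine, 42.5, 50.6 and 32.7 FPKM in high-fat diet, and 209, 179 and 199 FPKM in chow libraries, and fell against chow by 2.35 ± 0.17 (edgeR adjusted p = 0.000115). Creb3l1, a secretory pathway factor, fell by 1.69 ± 0.37 and Gfi1, which acts below Atoh1, by 1.25 ± 0.39 (edgeR adjusted p = 0.00978 and 0.039). The call of Gfi1 was lost in 10 of 19 alternatives, among them without chow replicate 2 (-0.80 ± 0.35, edgeR adjusted p = 0.137). Sox9, a factor of the crypt base, rose by 1.29 ± 0.28, Foxa1 by 0.69 ± 0.16 and Foxa3 by 0.80 ± 0.19 (edgeR adjusted p = 0.00988, 0.012 and 0.0149), the last not without chow replicate 1 (0.0512). In berberine against high-fat diet Klf4 rose by 2.40 ± 0.17 and Creb3l1 by 1.94 ± 0.37, and Sox9 fell by 0.92 ± 0.28 and Foxa3 by 0.66 ± 0.19 (edgeR adjusted p = 8.26e-05, 0.00576, 0.0375 and 0.0317). The calls of Sox9 and Foxa3 there were lost in 5 and 6 of 19 alternatives (adjusted p up to 0.124 and 0.107).

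In the Notch pathway, which opposes Atoh1, 5 of 11 tested genes rose and 2 fell in high-fat diet against chow. Rbpj and Hey1 reached the filter in 1 group only, without them 4 rose, and without chow replicate 1 the count was 3. The receptor Notch1 and the ligand Jag2 rose by 1.31 ± 0.13 and 1.71 ± 0.20 (edgeR adjusted p = 0.000338 and 0.000589), as did the modifier Lfng by 0.78 ± 0.15 (edgeR adjusted p = 0.00549). The feedback target Nrarp fell by 0.95 ± 0.18 (edgeR adjusted p = 0.00483). In berberine against high-fat diet 5 fell and 3 rose (4 fell and 2 rose without Rbpj and Hey1, and 3 fell without any 1 berberine library or high-fat diet replicate 2), among them Notch1 (-1.20 ± 0.13) and Jag2 (-2.04 ± 0.20) below and Nrarp (0.96 ± 0.18) above (edgeR adjusted p = 0.000449, 0.00031 and 0.00471). The ligand Dll1 rose there too, by 0.99 (edgeR adjusted p = 0.00846). Of the type 2 cytokine axis, which drives goblet cell growth and Retnlb, 6 of 15 genes were tested. The receptor chain Il13ra1 fell against chow by 0.86 ± 0.14 (edgeR adjusted p = 0.00271). The IL-33 receptor Il1rl1, which mast cells also carry, was at 2.96, 1.27 and 2.52 FPKM in berberine, 40.2, 17.5 and 1.31 FPKM in high-fat diet, and 1.36, 1.54 and 0.479 FPKM in chow libraries. High-fat diet and chow overlapped, its difference of 3.97 ± 1.04 (edgeR adjusted p = 0.02) lost its call in 5 of 19 alternatives (adjusted p up to 0.0595; 2.89 ± 0.93 without high-fat diet replicate 1), and the summed mast cell genes in the high-fat diet libraries were 3881, 924 and 236 FPKM. The part of mast cells in it was not tested. Il13 was at 2.51 FPKM in high-fat diet replicate 1 and at 0.234 FPKM or less elsewhere.

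**Figure D4:**
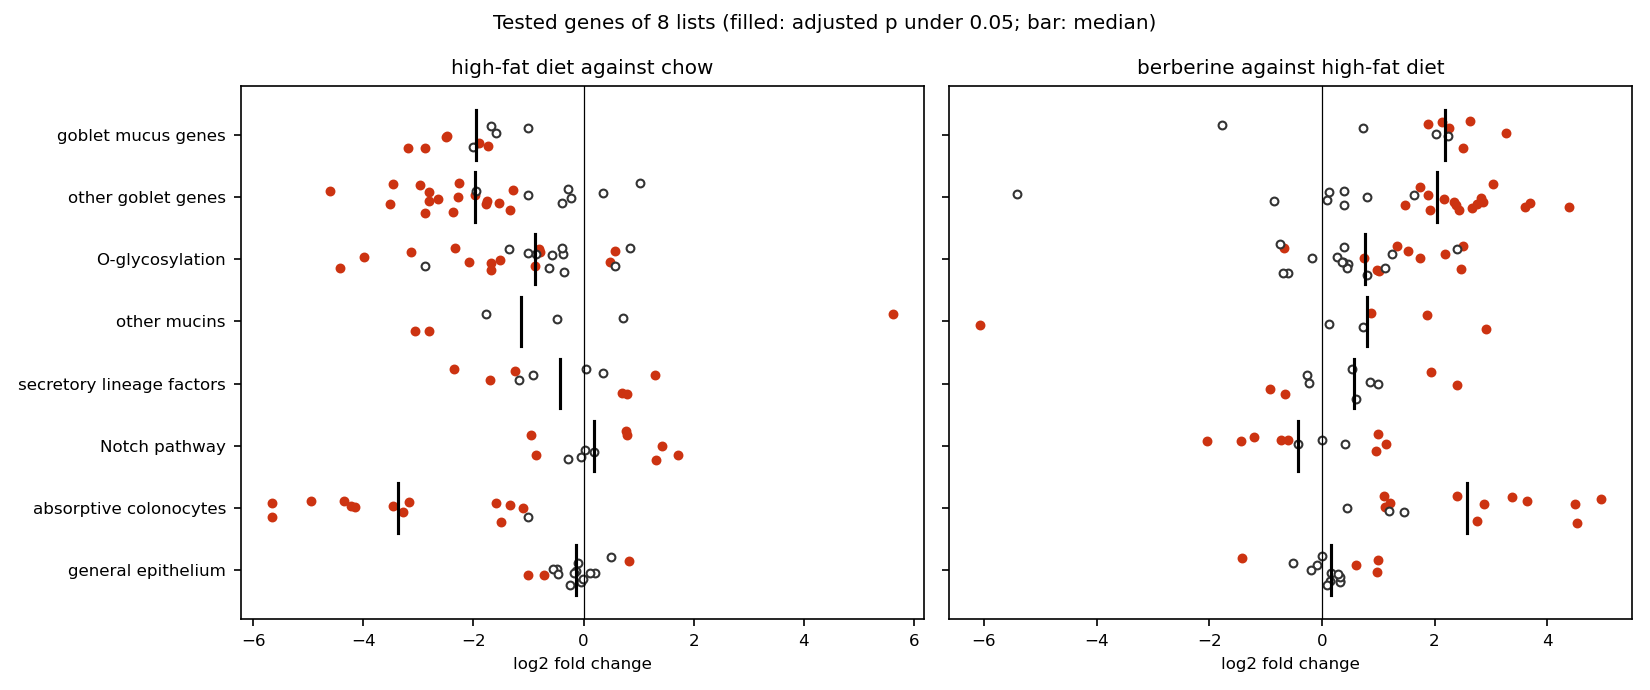
Log2 fold changes of the tested genes of 8 lists in high-fat diet against chow and berberine against high-fat diet (filled: adjusted p under 0.05; bar: median). Goblet mucus genes, other goblet genes and absorptive colonocyte genes have medians of -1.95, -1.96 and -3.37 in the left panel and 2.18, 2.05 and 2.58 in the right, and general epithelium -0.14 and 0.17.

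Genes of other cell types also differed between the groups, and their part in the goblet results was not tested. Some lists share genes, so their counts are not separate. Kit is in the deep crypt and mast cell lists, and Ang4 in the goblet and deep crypt lists. Guca2a is in the goblet and colonocyte lists, and Galnt12 in the goblet and O-linked sugar lists. Of 14 absorptive colonocyte genes 13 fell and none rose in high-fat diet against chow (median -3.37), and 11 rose and none fell in berberine against high-fat diet (median 2.58). Of 15 general epithelial genes 2 fell and 1 rose against chow (median -0.14), and 3 rose and 1 fell in berberine against high-fat diet (median 0.17). Of 10 genes of Paneth and deep crypt secretory cells 5 were higher and 1 lower in high-fat diet against chow; Defa24 and Defa17 reached the filter in the high-fat diet group only, and without them, or without chow replicate 1, 3 were higher. Mmp7 was at 0.302 to 1.18 FPKM in berberine, 104 to 196.5 FPKM in high-fat diet and 0.304 to 6.41 FPKM in chow libraries, and Defa24 was listed at 0 in 5 of the 6 berberine and chow libraries. Mast cell genes summed to 17.9 to 21.8 FPKM in berberine, 236 to 3881 FPKM in high-fat diet and 12.3 to 13.4 FPKM in chow libraries, with 6 of 7 higher against chow, or 3 without the 3 genes that reached the filter in that group only, Kit lower, and Fcer1a at 0 in all chow libraries. Smooth muscle genes summed to 1405 to 1658 FPKM in berberine, 561 to 2516 FPKM in high-fat diet and 2750 to 4016 FPKM in chow libraries (4 of 8 lower and none higher in high-fat diet against chow, and 8 lower without high-fat diet replicate 3 or 1 without high-fat diet replicate 2 or chow replicate 1). Striated muscle genes were at 574 FPKM in chow replicate 3 and 21.2 FPKM or less elsewhere. Adipocyte genes were at 357 and 266 FPKM in berberine replicates 1 and 2 and 55.5 FPKM or less elsewhere. Squamous genes were at 149 FPKM in chow replicate 1 and 34.3 to 79.0 FPKM in the high-fat diet libraries. They were at 12.8 FPKM or less in the berberine libraries and in chow replicates 2 and 3. Of 8 tested leukocyte genes 5 fell and 2 rose in high-fat diet against chow, or 1 rose without S100a8, which reached the filter in 1 group only, and 2 fell without high-fat diet replicate 2 or 3 and none rose without high-fat diet replicate 2, chow replicate 1 or chow replicate 2.

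In an alternative, library sizes were set so that the mean log count of the general epithelial genes was level in every library. This levels the mean and not each gene of the list. The 6 genes called in each comparison kept their calls. Atoh1 differed by -2.32 ± 0.27 in high-fat diet against chow and 2.47 ± 0.27 in berberine against high-fat diet (edgeR adjusted p = 0.000525 and 0.000401). Zg16 differed by -2.69 ± 0.54 and 3.08 ± 0.55 (edgeR adjusted p = 0.00696 and 0.00421).

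**Figure D5:**
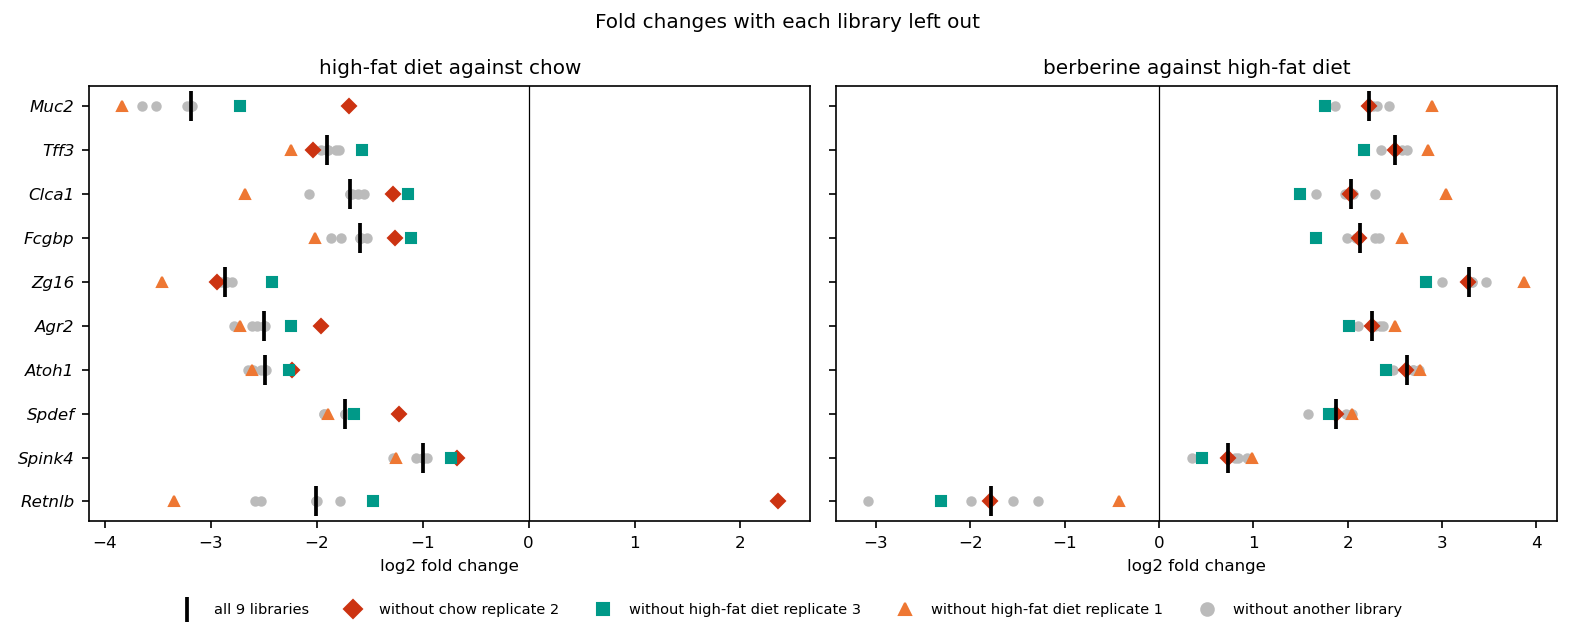
Log2 fold changes of the 10 genes with all 9 libraries (black bar) and with each library left out in turn, for high-fat diet against chow and berberine against high-fat diet. Chow replicate 2 moves Muc2 to -1.70 and Retnlb to 2.35 in the left panel; Tff3, Zg16, Agr2, Atoh1 and Spdef stay on their side of 0 and past the threshold without any 1 library.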

How the data were processed

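Colonic RNA of 9 mouse libraries was sequenced from poly(A) RNA with strand marking and molecular identifiers, per the labels' protocols. Per the file headers, the deposited values are estimated counts and FPKM, both per gene and library. The submitters' processing notes name HISAT2 2.0.4, StringTie 1.3.4d, UMI-tools, cutadapt 1.9, edgeR and DESeq2 and the build GRCm38, without roles or filters. The deposited estimated counts are whole numbers, not normalised between libraries, and 34.9% of those between 1 and 40 are multiples of 4. Their unit is not stated, and whether 1 fragment is worth about 4 counts was not tested. An alternative divided the counts by 4. The deposited FPKM is 0.0001 where the count is 0, which is written as 0 here. Of 55401 genes, 20961 had no count in any library.

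Genes averaging 1 FPKM or more (14506) were tested with edgeR 4.0.16 (quasi-likelihood, TMM scaling, all 9 libraries, R 4.3.3). Genes rose or fell at a Benjamini-Hochberg adjusted p under 0.05 over all tested genes. Alternatives used DESeq2 1.42.0, limma 3.58.1, other scalings and each library left out. List counts with a library left out, and the alternatives for Galnt1, Galnt2, Gfi1, Foxa3 and B3gnt6 against chow, were chosen after seeing the data. Members and lists were chosen with earlier results of these data known. From each list, the genes named are up to 4 with the smallest p, and those needed for small counts or as markers were named after their values were seen. Promoter windows are from RefSeq.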

Additional observations from a re-analysis of the deposited data

How the results depend on the processing

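Tff3, Zg16, Agr2, Atoh1 and Spdef kept both calls, in high-fat diet against chow and in berberine against high-fat diet, under all 19 alternatives. Between 5 and 8 of the 10 genes fell in high-fat diet against chow and between 5 and 7 rose in berberine against high-fat diet. Muc2 in high-fat diet against chow lost its call with only those groups in the fit (adjusted p = 0.072) and with the replicate block (-2.93 ± 1.0, adjusted p = 0.0686), beside the libraries named above. In berberine against high-fat diet Muc2 gained a call with only those groups in the fit (adjusted p = 0.0493). DESeq2 also called Fcgbp and Spink4 in high-fat diet against chow (adjusted p = 0.0136 and 0.0437) and Clca1 in berberine against high-fat diet (adjusted p = 0.0232). Retnlb in high-fat diet against chow took the other sign with limma on log2(FPKM + 1) (0.11) or log2(FPKM + 0.1) (0.54), and its values with 1 library left out ran over -3.35 to 2.35.

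In berberine against chow no member was called under any alternative, and these values changed sign with 1 library left out: Muc2 ran over -1.43 to 0.52, Clca1 over -0.05 to 0.74, Agr2 over -0.52 to 0.30, Atoh1 over -0.02 to 0.39, Spdef over -0.15 to 0.66, Spink4 over -0.65 to 0.05 and Retnlb over -5.07 to 0.56. Over all genes, 7 were called there, 2 with RLE scaling, with log2(FPKM + 0.1), with counts divided by 4, with only those groups or with the replicate block, 380 with DESeq2, and 1 to 7 with 1 library left out. In berberine against high-fat diet 4460 genes were called, and 2960 to 4740 with 1 library left out, the lowest without berberine replicate 2. The cause was not tested.

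Same-numbered libraries deviated together with r of -0.099 to 0.16, over 0.1 in 2 of 9 pairs. Differently numbered libraries of different groups had r of -0.219 to 0.16. The labels do not say what a replicate number shares, and whether the numbers mark pairs was not tested. The replicate block gave 4344 calls in high-fat diet against chow, against 4613 without it. Library totals alone moved the median of all genes to 0.13 and epithelial scaling to 0.16 in high-fat diet against chow, without changing a member's direction. Over 76 results of other named genes, none reversed and 15 lost a call at least once, as given beside those printed. All 76 were picked among results called with all libraries, so a reversal was unlikely from the start. DESeq2 gave no adjusted p for Mmp7 and B3gnt6. With 3 libraries per group the 95% intervals of Clca1, Muc2 and Retnlb span several log2 units.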
